A study of Mus musculus with 6 samples.

Results

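The desmosome genes of keratinocytes were followed in RNA-seq of whole mouse skin treated with rebamipide. The members were chosen by name. They are the desmogleins Dsg1a, Dsg1b and Dsg3, the desmocollins Dsc1, Dsc2 and Dsc3, the plakophilins Pkp1 and Pkp3, plakoglobin (Jup) and desmoplakin (Dsp). All 10 were found among the 21959 genes of the deposited table, and all 10 were among the 14875 genes that passed the filter on low counts. Of these, 6 are largely restricted to stratified epithelia (Dsg1a, Dsg1b, Dsg3, Dsc1, Dsc3 and Pkp1), and 4 are more widely expressed among epithelia and other tissues (Dsc2, Pkp3, Jup and Dsp).

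The study asked how topical rebamipide alters gene expression in skin before hair regrowth. Wildtype male C57BL/6 mice were shaved on the back at 7 weeks of age, with their hair follicles in telogen, the resting phase of the hair cycle. For 7 days, 3 mice received vehicle made of 30% dipropylene glycol and 70% water, and 3 mice received 3% rebamipide, each applied daily to the shaved skin. Poly-A libraries were made from dorsal skin of full thickness, which as a tissue holds epidermis, hair follicles, dermis, fat, vessels and any muscle dissected with it. Here the libraries are called vehicle 1 to 3 and rebamipide 1 to 3, after the replicate numbers of the labels.

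Desmosomes are the spot-like junctions that bind neighbouring keratinocytes to each other and resist mechanical stress. Outside the cell, desmogleins and desmocollins, both members of the cadherin family, adhere across the gap. Inside, their tails bind plakoglobin and plakophilins, which are armadillo-repeat proteins, and these bind desmoplakin, which anchors the keratin filaments. In epidermis the set in use shifts with differentiation: Dsg3 and Dsc3 are most abundant in the lower layers, and Dsg1 and Dsc1 in the upper layers.

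Promoter sequence is shown for Jup and Dsp, the member that kept most of its level and the most abundant member. These were the 2 of 10 members found in the RefSeq promoter table. Each stretch runs 5′ to 3′ on the gene's strand, from 250 bases before the annotated start to 50 bases after it, in build GRCm38.p6. The Jup stretch is chr11:100397741-100398040 on the minus strand, and the Dsp stretch is chr13:38151044-38151343 on the plus strand. Capitals mark matches to the GC box GGGCGG, the letters bound by Sp1-type factors, read on either strand.
Jup: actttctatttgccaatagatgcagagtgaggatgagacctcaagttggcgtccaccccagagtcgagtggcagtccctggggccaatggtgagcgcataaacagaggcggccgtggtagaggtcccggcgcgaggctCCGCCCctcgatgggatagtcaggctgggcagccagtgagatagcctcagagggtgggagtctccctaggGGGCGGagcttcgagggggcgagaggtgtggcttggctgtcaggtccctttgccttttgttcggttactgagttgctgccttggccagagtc
Dsp: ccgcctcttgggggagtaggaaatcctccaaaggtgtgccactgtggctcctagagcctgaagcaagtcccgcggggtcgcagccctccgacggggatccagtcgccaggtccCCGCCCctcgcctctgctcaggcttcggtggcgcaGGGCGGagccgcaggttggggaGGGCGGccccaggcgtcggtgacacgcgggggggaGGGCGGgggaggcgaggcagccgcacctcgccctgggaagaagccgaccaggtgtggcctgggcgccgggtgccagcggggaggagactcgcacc
The Dsp stretch held 4 GC boxes, whose first bases lie at −137, −102, −80 and −45 from the start, and the Jup stretch held 2, at −112 and −42. Of 32851 promoters of the same length, 35.7% held at least 1 GC box. The GC content was 73.0% for Dsp and 60.7% for Jup, against a median of 52.7% over all promoters (quartiles 45.7% and 61.7%). The other motifs searched on both strands were the AP-1 site TGANTCA (in 7.81% of promoters), the grainyhead-like core ACCGGT (2.33%) and the TATA box TATAAA (13.6%), and neither stretch held any of them.

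The libraries held 38676018 to 39915276 counts in the vehicle group and 32709801 to 34706852 in the rebamipide group. Means are given ± SD over the 3 libraries of a group, and fold changes ± the standard error (SE) of the fit. Levels are given as CPM, the count of a gene scaled to the size of its library after normalization with edgeR's TMM factors. A count of 0 allows up to 3 counts, or 0.0601 to 0.117 normalized CPM depending on the library, which covers counting error alone. The keratinocyte markers were present in all vehicle libraries, with a summed level of 2181 to 6602 CPM over 6 genes. They summed to 1892, 1128 and 15.9 CPM in rebamipide 1, 2 and 3. edgeR called 0 of these 6 lower (1 at an unadjusted p under 0.05), and DESeq2 and limma-voom called 1 each. Rebamipide 3 stood apart from every other library in these markers. It held 0 counts of Krt14 and 4 counts of Krt5, the partner keratins of basal keratinocytes, so the defining markers of the cell type were almost absent from a library labelled skin. Among the 4439 genes with a vehicle mean of at least 2000 counts, 4.19% were at 0 in rebamipide 3, against 1.49% in rebamipide 2 and 0% in rebamipide 1. By raw counts over all genes, a measure in which abundant genes weigh most, rebamipide 2 and 3 were the most alike pair within a group. Their chi-square was 71.0 times its degrees of freedom, against 173.8 to 655.7 for the other pairs (449.0 for rebamipide 1 and 3). Among the 13722 genes with a vehicle mean of at least 50 counts, 5.13%, 1.48% and 0.102% were at 0 in rebamipide 3, 2 and 1. Results of the members are given with and without rebamipide 3, and so are those of other named genes wherever the call differed. In whole tissue, fewer keratinocytes and less RNA per keratinocyte cannot be told apart.

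All 10 desmosome genes were lower in each rebamipide library than in any vehicle library. Of all genes tested, 24.0% showed the same separation. The median log2 fold change over the members was −3.48, against −0.17 over all genes tested. With scaling by total counts alone the medians were −4.04 and −0.78, and without rebamipide 3 they were −2.89 and −0.14. With limma-voom, which averages log values, they were −6.21 and −0.18. At an adjusted p under 0.05 in edgeR's quasi-likelihood test, 2 of 10 members were lower, Jup and Dsc2, against 6.51% of all genes. Without rebamipide 3, edgeR called 8 of 10 lower, all but Jup and Pkp3, against 2.49% of all genes. DESeq2 called 5 of 10 lower with all libraries, namely Dsc2, Jup, Pkp3, Dsg3 and Dsg1b, against 17.0% of all genes. Without rebamipide 3 DESeq2 called all 10, against 12.2% of all genes. limma-voom called 2 of 10 lower with all libraries, against 6.94% of all genes. The study's thresholds were an unadjusted p under 0.05 and a log2 fold change beyond 1 in size. They gave 2 of 10 with edgeR, against 14.5% of all genes. The study applied them with DESeq2. In DESeq2 as run here Dsc2, Jup, Pkp3 (unadjusted p = 0.00429), Dsg1b and Dsg3 (0.0105 each) and Dsc1 (0.0422) passed. Dsg1a, Dsc3, Dsp and Pkp1 did not, with DESeq2 unadjusted p-values of 0.0766 to 0.179. The share of all genes passing these thresholds in DESeq2 was not computed. In edgeR 0 members were higher, at an adjusted or an unadjusted p under 0.05, where 14.1% of all genes were higher at the adjusted threshold, and DESeq2 and limma-voom called 0 higher as well, where they called 18.3% and 14.4% of all genes higher.

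**Figure D1:**
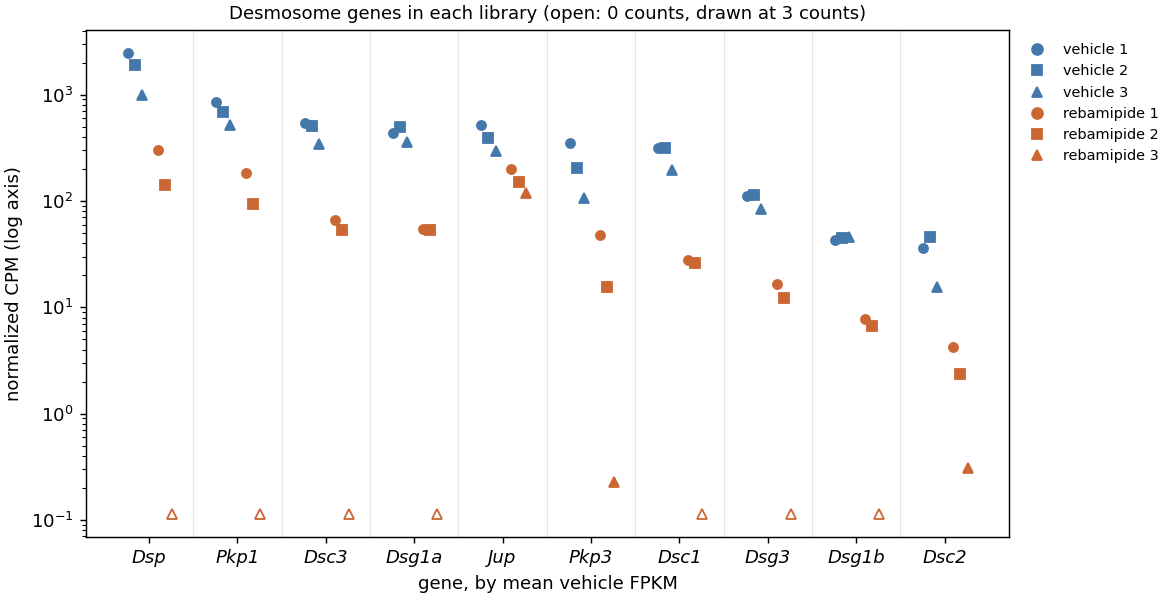
Level of each of the 10 desmosome genes in each library, as normalized CPM on a log axis, with genes ordered by their mean FPKM in the vehicle group. Blue symbols are the 3 vehicle libraries and orange symbols the 3 rebamipide libraries; open triangles are counts of 0 in rebamipide 3, drawn at the level of 3 counts. All orange symbols of a gene lie below all blue ones, and Jup is the only member whose rebamipide 3 value stays near those of rebamipide 1 and 2.

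Of the 10 members, 6 lie in the desmosomal cadherin cluster on chromosome 18, as the deposited table gives them. They lie between position 20093987, the lower coordinate of Dsc3, and position 20680516, the upper coordinate of Dsg3. The others lie apart, Pkp1 on chromosome 1, Pkp3 on chromosome 7, Jup on chromosome 11 and Dsp on chromosome 13. The table's positions overlapped no other gene for any member.

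The desmogleins are the cadherins that pemphigus autoantibodies recognise. Dsg1a, an upper-layer desmoglein 1 gene of the mouse, was at 432, 498 and 357 CPM with vehicle and at 54.8, 53.1 and 0 CPM in the rebamipide libraries. The first and second rebamipide libraries were close to each other, and the third held no count. The log2 fold change was −3.58 ± 1.77 (SE, edgeR adjusted p = 0.181), and without rebamipide 3 it was −2.98 ± 0.33 (SE, edgeR adjusted p = 0.0206). Dsg1b, its neighbouring copy, was far less abundant and almost constant among the vehicle mice, at 43.3, 44.6 and 46.0 CPM, and it was at 7.77, 6.66 and 0 CPM with rebamipide. Its log2 fold change was −3.21 ± 1.38 (SE, edgeR adjusted p = 0.137), and −2.62 ± 0.27 (SE, edgeR adjusted p = 0.0206) without rebamipide 3. The split of reads among the desmoglein 1 copies is uncertain. Of the 100-base windows of the longest GENCODE transcript, 24.6% of Dsg1a, 32.8% of Dsg1b and 13.9% of Dsg1c also occurred exactly in another copy, while Dsg3 and the 3 desmocollins shared 0%.

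Dsg3, the desmoglein of the basal layers and of the resting hair's anchorage, was at 112, 114 and 83.9 CPM with vehicle and at 16.5, 12.4 and 0 CPM in the rebamipide libraries. The groups did not overlap. The log2 fold change was −3.43 ± 1.49 (SE, edgeR adjusted p = 0.14) and −2.84 ± 0.31 (SE, edgeR adjusted p = 0.0206) without rebamipide 3. The FPKM ratio of Dsg1a to Dsg3, a comparison per gene length, was 4.71, 5.34 and 5.23 in the vehicle libraries and 4.08 and 5.28 in rebamipide 1 and 2, so the balance of the upper-layer to the lower-layer desmoglein overlapped between the groups. In rebamipide 3 all 6 desmoglein genes of the table, these and Dsg1c, Dsg2 and Dsg4, were at 0.

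The desmocollins are the other cadherin partner. Dsc3, the form of the basal layers and the most abundant one, was at 545, 507 and 343 CPM with vehicle and at 66.1, 53.8 and 0 CPM with rebamipide. Its log2 fold change was −3.54 ± 1.79 (SE, edgeR adjusted p = 0.188) and −2.95 ± 0.38 (SE, edgeR adjusted p = 0.0219) without rebamipide 3. Dsc1, the form of the upper layers, was at 312, 314 and 195 CPM against 27.6, 26.3 and 0 CPM. Its log2 fold change was −3.93 ± 1.67 (SE, edgeR adjusted p = 0.135), and −3.33 ± 0.37 (SE, edgeR adjusted p = 0.0206) without rebamipide 3. The FPKM ratio of Dsc1 to Dsc3 was 0.612, 0.664 and 0.609 in the vehicle libraries and 0.448 and 0.525 in rebamipide 1 and 2, and here the ranges did not overlap.

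Dsc2 is the desmocollin found in simple epithelia and heart as well as skin. It was the least abundant member, at 36.0, 45.7 and 15.6 CPM with vehicle and at 4.21, 2.34 and 0.305 CPM in the rebamipide libraries, the last of these from 8 counts. Dsc2 fell in the rebamipide group with all libraries in the fit, with a log2 fold change of −3.82 ± 0.94 (SE, edgeR adjusted p = 0.0378), and without rebamipide 3 (−3.30 ± 0.60, SE, edgeR adjusted p = 0.0323). The call was lost without vehicle 1 (edgeR adjusted p = 0.0891), vehicle 2 (0.130), vehicle 3 (0.0512) or rebamipide 2 (0.141). Its vehicle values differed among themselves 2.94-fold, against 1.06-fold for Dsg1b. Because Dsc1 and Dsc3 were at 0, those 8 counts made Dsc2 100% of the desmocollin FPKM in rebamipide 3, against 2.81% to 5.26% in the other 5 libraries.

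**Figure D2:**
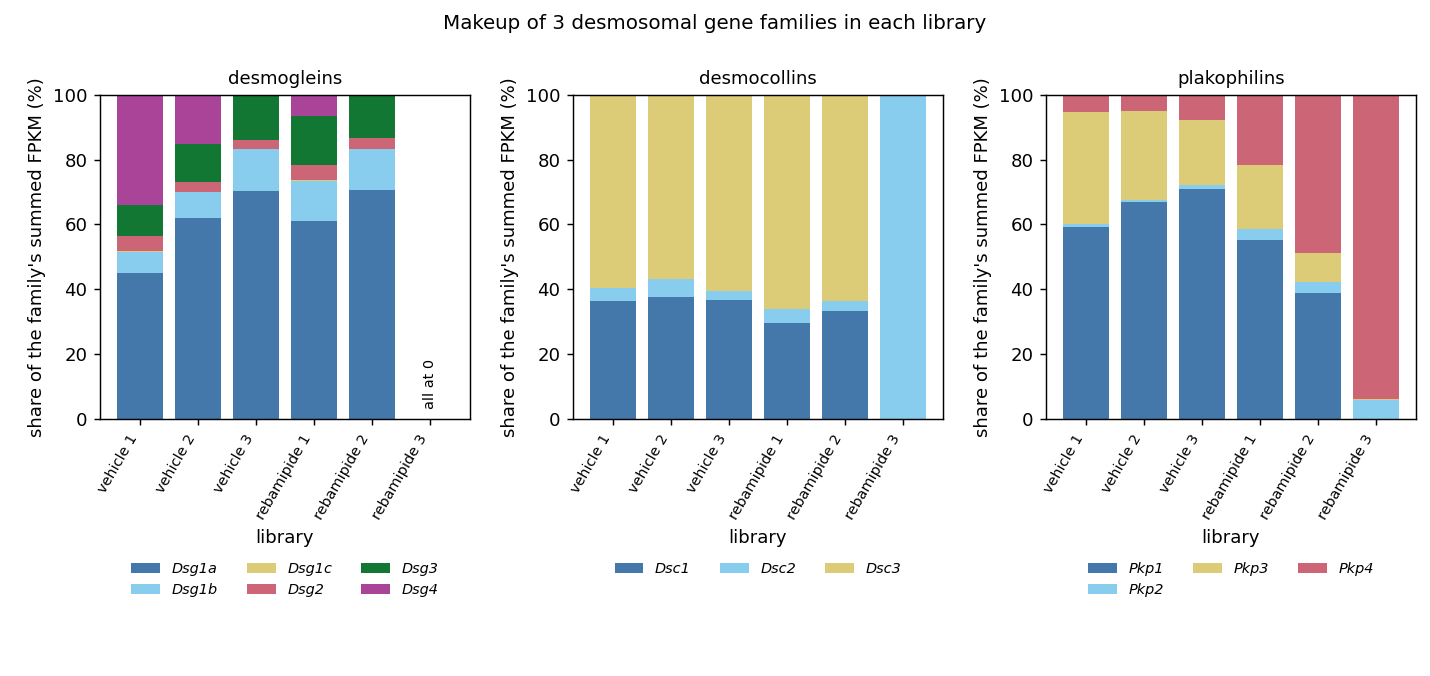
Makeup of the desmogleins, desmocollins and plakophilins in each library, as each gene's share in percent of its family's summed FPKM. Dsg1a, Dsc3 and Pkp1 lead their families in the vehicle libraries; in rebamipide 3 the desmoglein bar is empty because all 6 genes are at 0, the desmocollin bar is Dsc2 alone, and Pkp4 makes up 93.9% of the plakophilins.

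Plakophilins stabilise the plaque by binding desmoplakin and cadherin tails. Pkp1, the main form of stratified epithelia, was at 844, 690 and 522 CPM with vehicle and at 185, 93.3 and 0 CPM in the rebamipide libraries. Its groups did not overlap, and its 2 detected rebamipide values lay wider apart than those of the desmogleins and desmocollins of the same class. The log2 fold change was −2.89 ± 1.89 (SE, edgeR adjusted p = 0.288) and −2.29 ± 0.46 (SE, edgeR adjusted p = 0.0374) without rebamipide 3. Pkp3, found in nearly all epithelia, was at 354, 202 and 107 CPM against 47.4, 15.4 and 0.229 CPM, the last from 6 counts. Its log2 fold change was −3.39 ± 1.48 (SE, edgeR adjusted p = 0.142). It did not pass without rebamipide 3 either (−2.81 ± 0.73, SE, edgeR adjusted p = 0.0644), and DESeq2 called it with all libraries (adjusted p = 0.0166).

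Pkp3 had the widest vehicle spread of the members, 3.31-fold between vehicle 1 and vehicle 3. Dsp, with 2.45-fold, was also highest in vehicle 1 and lowest in vehicle 3. The hair matrix and shaft markers differed among the same libraries: the 4 of 5 found in the table summed to 12031, 5206 and 127 CPM in vehicle 1, 2 and 3 and to 657, 0.234 and 0 CPM in rebamipide 1, 2 and 3. In edgeR, DESeq2 and limma-voom 0 of these 4 were lower at an adjusted p under 0.05, and 1 was lower at an unadjusted p under 0.05 in edgeR. Their part in the levels of Pkp3 and Dsp was not tested.

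Plakoglobin, encoded by Jup, is the member that desmosomes share with adherens junctions, where it binds classical cadherins, including Cdh5 of endothelial cells. It was at 516, 388 and 295 CPM with vehicle and at 202, 152 and 119 CPM in the rebamipide libraries. The groups did not overlap, and the rebamipide values lay close together, with 3125 counts of Jup still present in rebamipide 3. Jup fell with a log2 fold change of −1.34 ± 0.32 (SE, edgeR adjusted p = 0.0336), the smallest of the 10. Without rebamipide 3 the value was −1.17 ± 0.37 (SE, edgeR adjusted p = 0.0988), which did not pass, and DESeq2 called Jup with and without that library. The edgeR call was also lost without vehicle 1 (adjusted p = 0.0728), vehicle 2 (0.117) or rebamipide 2 (0.14).

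Desmoplakin (Dsp) was the most abundant member. It was at 2446, 1880 and 998 CPM with vehicle and at 304, 140 and 0 CPM in the rebamipide libraries. In counts the vehicle libraries held 46680 to 122104, and rebamipide 3 held none. The log2 fold change was −3.58 ± 2.05 (SE, edgeR adjusted p = 0.235) and −2.99 ± 0.61 (SE, edgeR adjusted p = 0.0393) without rebamipide 3.

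**Figure D3:**
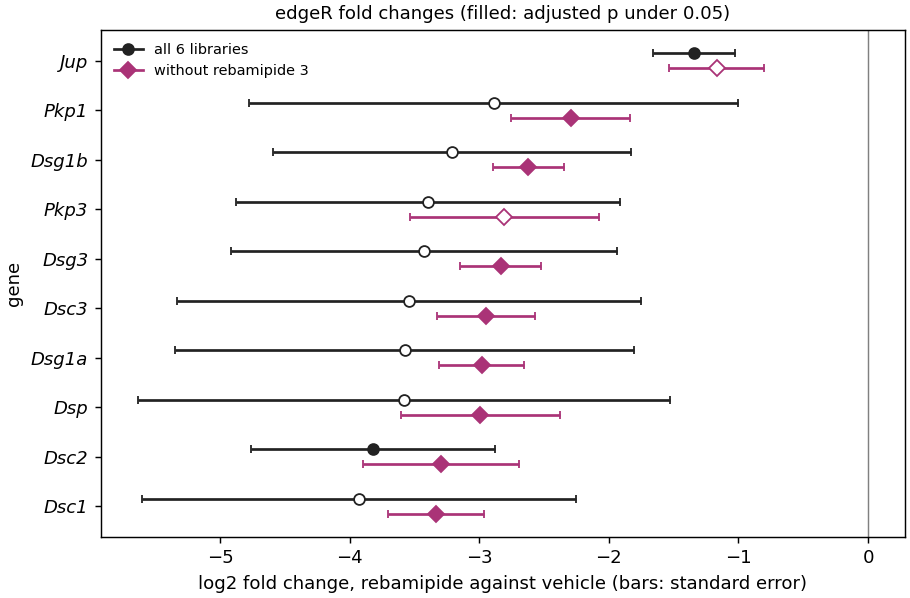
Fitted log2 fold changes of rebamipide against vehicle for the 10 members, with bars of 1 standard error, from edgeR with all 6 libraries (black circles) and without rebamipide 3 (purple diamonds). Filled symbols have an adjusted p under 0.05: 2 of 10 with all libraries and 8 of 10 without rebamipide 3, where the bars of every member except Jup are shorter.

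Per gene length the order of the members in the vehicle group was led by Dsp, with 229.5 ± 99.6 FPKM (SD, n = 3). Pkp1 followed with 169.9 ± 44.4 FPKM, Dsc3 with 107.1 ± 27.1, Dsg1a with 93.6 ± 16.2, Jup with 77.4 ± 23.6, Pkp3 with 76.6 ± 45.1 and Dsc1 with 67.5 ± 18.0 FPKM. Each of these 7 overlapped in range with its neighbour in the order. The last members stood apart, each below the one before without overlap: Dsg3 at 18.5 ± 3.39 FPKM, Dsg1b at 13.95 ± 0.069 and Dsc2 at 7.66 ± 3.68 FPKM.

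In rebamipide 1 the 9 members other than Jup were left at 10.1% to 26.9% of their vehicle mean CPM (median 15.9%), in rebamipide 2 at 6.98% to 14.9% (median 11.6%), and in rebamipide 3 at 0% to 0.941%. Jup was left at 50.5%, 38.1% and 29.8%, above all other members in each of the 3 libraries. Its share of the members' summed FPKM was 9.19%, 8.29% and 9.67% in the vehicle libraries and 21.6%, 26.4% and 99.4% in the rebamipide libraries. The sum itself was 1113, 898 and 574 FPKM in the vehicle libraries and 135, 66.7 and 14.1 FPKM in the rebamipide libraries. The FPKM ratio of Dsp to Jup was 3.16, 3.22 and 2.25 with vehicle and 1.00, 0.613 and 0 with rebamipide.

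Restricted and wide members were then compared as classes within each library. The median log2(FPKM + 0.1) of the 6 restricted members minus that of the 4 wide members was −0.37, 0.34 and 0.42 in the vehicle libraries and −1.47, −0.17 and −0.54 in the rebamipide libraries. The ranges overlapped, with the lowest vehicle value below the highest rebamipide value, and the means differed by −0.86. Without rebamipide 1, 2 or 3 they differed by −0.49, −1.14 and −0.95. In rebamipide 3 all 6 restricted members were at 0, so their median there is set by the pseudocount, and the wide median rests on Dsc2 and Pkp3 with 8 and 6 counts. With Pkp3 counted among the restricted members the values were −0.08, 0.04 and −0.25 against −1.69, −1.45 and −0.52, without overlap. The median log2 fold changes of the classes were −3.48 (restricted) and −3.49 (wide). edgeR called 0 of 6 restricted members with all libraries, against 6.51% of all genes, and 0 also at an unadjusted p under 0.05. DESeq2 called 2, against 17.0% of all genes, and limma-voom 0, against 6.94%. Without rebamipide 3 edgeR called 6 of 6 restricted and 2 of 4 wide members, against 2.49% of all genes. The difference between these counts was not tested.

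Endothelial markers were set beside Jup because their junctions use plakoglobin. They summed to 209, 304 and 497 CPM in the vehicle libraries and to 1012, 1254 and 1459 CPM in the rebamipide libraries. Of 6 markers, 3 were higher in edgeR (2 without rebamipide 3) and 6 in DESeq2. All 6 were above every vehicle library in each rebamipide library, where 24.5% of all genes were. Cdh5, the endothelial cadherin that binds plakoglobin, rose from 85.6 ± 33.9 to 399.7 ± 89.0 CPM (SD, n = 3), a log2 fold change of 2.22 ± 0.36 (SE, edgeR adjusted p = 0.0139). The call held without rebamipide 3 (edgeR adjusted p = 0.0350) and was lost without vehicle 2 (adjusted p = 0.0883) or rebamipide 2 (0.0657). The FPKM ratio of Jup to Cdh5 was 5.98, 3.27 and 1.57 with vehicle and 0.425, 0.247 and 0.160 with rebamipide. The part of endothelial cells in the Jup level was not tested.

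Basal keratins gave a reference within each library that does not depend on the scaling between libraries. Per 1000 counts of Krt5 and Krt14 together, Dsp stood at 1596, 652 and 402 counts with vehicle and at 382 and 313 in rebamipide 1 and 2. Rebamipide 3 had too few keratin counts for a ratio. Dsg1a stood at 282, 173 and 144 against 68.9 and 119. Dsc1 stood at 203, 109 and 78.6 against 34.7 and 58.9. For 7 of 10 members both rebamipide ratios lay below all vehicle ratios, where 0.686% of all genes did. The keratins themselves held 24150 and 11470 counts in rebamipide 1 and 2, against 76526 to 141906 with vehicle. A gene with unchanged counts thus rises on this scale. The low share over all genes follows largely from that and is no measure of the members. The same separation was not counted over other keratinocyte genes. The margin was narrow for Dsp, Dsc2 (6.27 in vehicle 3 against 5.30) and Dsg1b (15.5 in vehicle 2 against 14.9).

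The exceptions were the armadillo proteins. Pkp1 stood at 551, 240 and 210 per 1000 keratin counts against 232 and 209, and Pkp3 at 231, 70.3 and 43.0 against 59.6 and 34.5. Jup stood at 336, 135 and 119 with vehicle and at 254 and 340 in rebamipide 1 and 2, and the mean of the latter was 1.51 times the vehicle mean. All 3 overlapped between the groups. The median log2 ratio of rebamipide to vehicle over the 10 members was −1.11 on this scale. It was 1.77 over the 14864 tested genes with a finite log2 ratio. Vehicle 1 was the highest library for 9 of the 10 members and the lowest in keratin counts of its group, with 76526 counts against 141906 and 116142. Without vehicle 1 the median log2 ratio was −0.60, the same 7 members lay below both remaining vehicle libraries, and Jup lay above both, with a mean 2.34 times theirs.

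**Figure D4:**
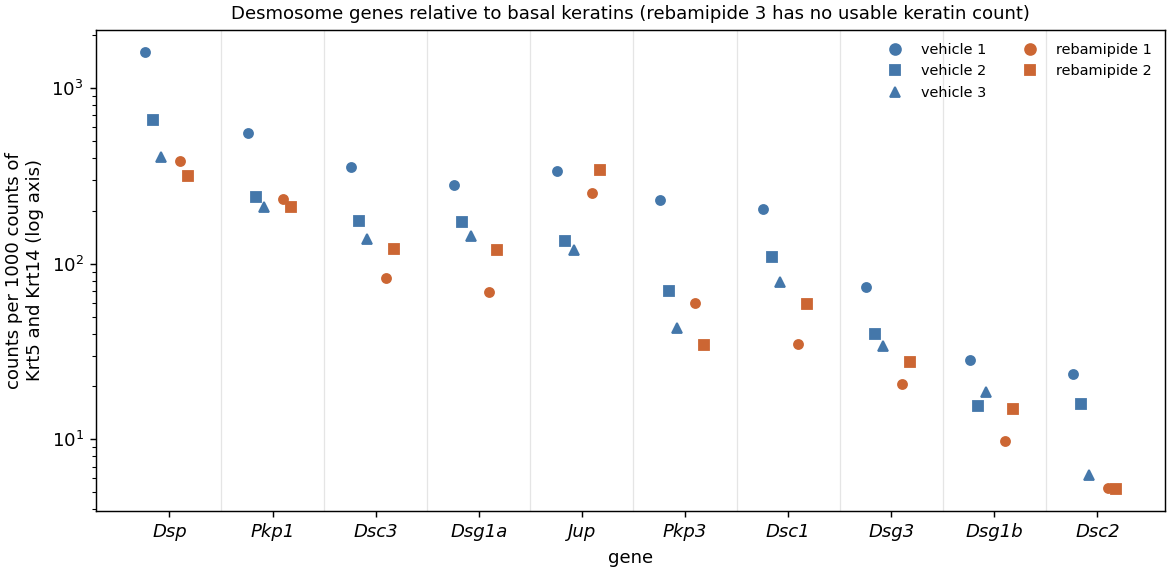
Counts of each member per 1000 counts of Krt5 plus Krt14 in the same library, on a log axis, for the 3 vehicle libraries (blue) and rebamipide 1 and 2 (orange). Rebamipide 3 is left out because it held 4 keratin counts; 7 of 10 members have both orange symbols below all blue ones, and Pkp1, Pkp3 and Jup do not.

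Of the 54 other genes tested in the lists of junctions, keratins, regulators and proteases, edgeR called 6 lower with all libraries, against 6.51% of all genes. It called 16 without rebamipide 3, against 2.49% of all genes, 7 without rebamipide 1 and 0 without rebamipide 2, and 1, 0 and 2 without vehicle 1, 2 and 3. Each call named in these lists was therefore lost when vehicle 2 or rebamipide 2 was left out. The share of all genes called was not computed for the left-out fits other than that without rebamipide 3.

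The other desmosome and cornified desmosome genes lay at a median of −3.00 on the log2 scale. Of 9 such genes 8 were tested, and edgeR called 2 lower and 0 higher (5 lower and 1 higher at an unadjusted p under 0.05). DESeq2 called 5 lower and 0 higher, and edgeR without rebamipide 3 called 5 lower. Periplakin (Ppl), which links the plaque and the cornified envelope, fell from 312 ± 71.0 to 37.1 ± 28.9 CPM (log2 fold change −3.07 ± 0.82, SE, edgeR adjusted p = 0.0452). Corneodesmosin (Cdsn), the glycoprotein of desmosomes in the horny layer, fell from 295 ± 57.7 to 73.1 ± 37.1 CPM (−2.01 ± 0.44, SE, edgeR adjusted p = 0.0281), and it still had 916 counts in rebamipide 3. Both passed without rebamipide 3 (edgeR adjusted p = 0.0242 and 0.0396), and both were lost without any 1 of the 3 vehicle libraries (0.0592 to 0.138).

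The rest of these genes did not pass in edgeR with all libraries. Perp, a desmosomal membrane protein and p63 target, had 1380 ± 266 CPM against 181 ± 171 (edgeR adjusted p = 0.157, without rebamipide 3 0.0328, DESeq2 0.0250), and envoplakin (Evpl), the partner of Ppl, had 145 ± 56.2 against 16.0 ± 16.7 (edgeR adjusted p = 0.112, without rebamipide 3 0.0448, DESeq2 0.0097). Dsg2, the desmoglein of simple epithelia and heart, had 40.1 ± 21.5 against 3.28 ± 3.05 CPM (edgeR adjusted p = 0.112, without rebamipide 3 0.0350, DESeq2 0.0160). All 3 thus passed in edgeR without that library and in DESeq2 with it. Dsg4, the desmoglein of the hair shaft, held 9960, 3678 and 71 counts with vehicle and 112, 0 and 0 with rebamipide, so its vehicle libraries overlapped with the rebamipide ones. Dsg1c was too low to test, with 113, 57 and 10 counts against 4, 0 and 0.

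Pkp2 and Pkp4, the plakophilin-family genes with roles outside stratified epithelium, had other values. Pkp2, best known from heart, had 10.5 ± 4.43 CPM with vehicle and 9.88 ± 1.28 with rebamipide (log2 fold change −0.09 ± 0.35, SE, edgeR adjusted p = 0.870). Pkp4, a p120-related protein of many tissues, had 70.9 ± 15.2 and 125 ± 39.3 CPM (0.82 ± 0.30, SE, edgeR adjusted p = 0.0968). The makeup of the family differed between the groups. Pkp4 took 5.44%, 5.09% and 7.77% of the family's summed FPKM in the vehicle libraries and 21.8%, 48.9% and 93.9% in the rebamipide libraries. Pkp1 took 59.1%, 67.0% and 71.0% against 55.3%, 38.7% and 0%.

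Adherens junction genes had a smaller median log2 fold change than the desmosome genes, −0.58 over 10 genes. edgeR called 0 lower (2 at an unadjusted p under 0.05), and DESeq2 called 4 and limma-voom 1. Within the list, the catenins that all cells use were detected at like levels in all 3 rebamipide libraries, rebamipide 3 included. β-catenin (Ctnnb1), the closest relative of plakoglobin, was at 701, 392 and 277 CPM with vehicle and at 322, 300 and 290 CPM with rebamipide (log2 fold change −0.59 ± 0.37, SE, edgeR adjusted p = 0.272), and α-catenin (Ctnna1) had a log2 fold change of −0.31 ± 0.22 (SE, edgeR adjusted p = 0.311). The FPKM ratio of Jup to Ctnnb1 was 0.593, 0.799 and 0.859 in the vehicle libraries and 0.505, 0.409 and 0.332 in the rebamipide libraries, without overlap. E-cadherin (Cdh1), the epithelial cadherin of these junctions, had values closer to the desmosome genes, 418, 304 and 209 CPM against 87.5, 42.4 and 1.07 CPM (−2.83 ± 1.27, SE, edgeR adjusted p = 0.149; without rebamipide 3 adjusted p = 0.0444).

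**Figure D5:**
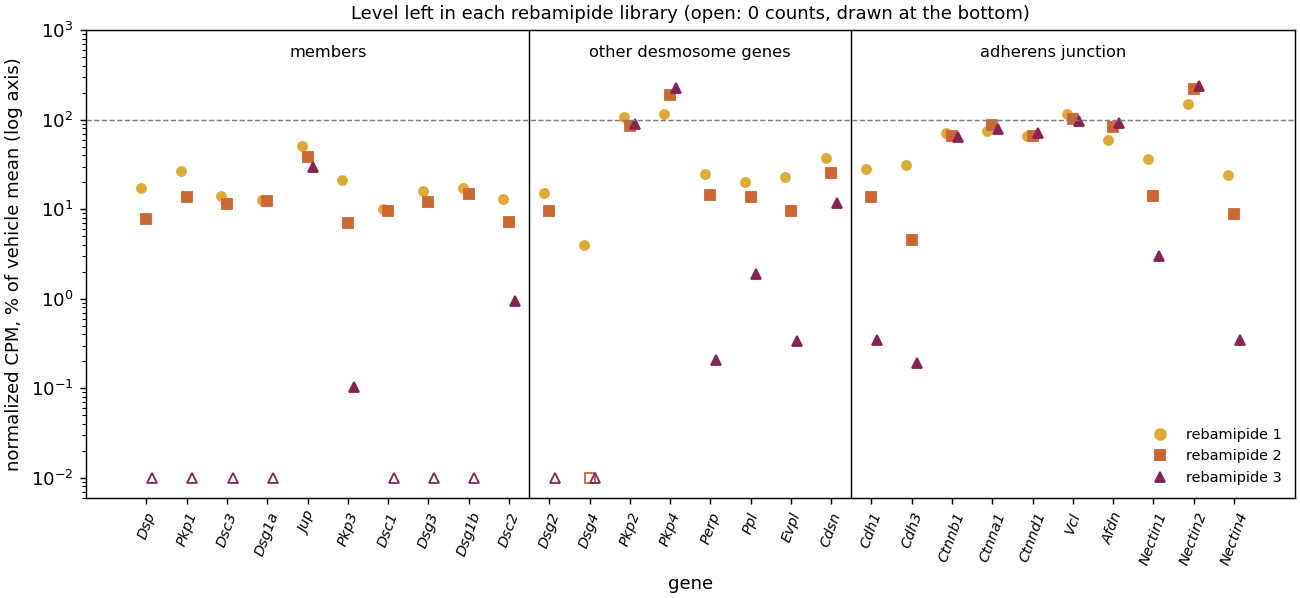
Level left in each rebamipide library as a percent of the vehicle mean normalized CPM, on a log axis, for the 10 members, the 8 tested other desmosome genes and the 10 adherens junction genes. The dashed line is 100%, and open symbols are counts of 0, drawn at the bottom; rebamipide 3 (triangles) is at 0.941% or less for 9 of 10 members, while Jup, Pkp2, Pkp4 and the catenins lie at 29.8% or above in every rebamipide library.

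In the other junction lists the members most abundant in skin varied. Of 9 tight junction genes 2 were lower in edgeR (3 without rebamipide 3, 5 with DESeq2). Claudin-1 (Cldn1), the main sealing claudin of epidermis, fell with a log2 fold change of −2.03 ± 0.36 (SE, edgeR adjusted p = 0.0167, without rebamipide 3 0.0459), Cldn4 had −3.01 (edgeR adjusted p = 0.190, without rebamipide 3 0.0393), and F11r, which blood and endothelial cells also express, had 0.49 (edgeR adjusted p = 0.241). Of 6 gap junction genes edgeR called 0 lower (2 at an unadjusted p under 0.05, 3 without rebamipide 3), DESeq2 called 3 and limma-voom 0. The log2 fold changes were −4.34 for Gjb2 (edgeR adjusted p = 0.135) and −1.07 for Gja1 (edgeR adjusted p = 0.260), the connexin that many tissues share.

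Regulators and proteases of the same layer were set beside them. Of 8 epidermal transcription regulators, all 8 were lower in each rebamipide library than in any vehicle library, where 24.0% of all genes were. Of the 8, 2 passed in edgeR (3 without rebamipide 3, 6 with DESeq2), against 6.51% of all genes (2.49% and 17.0%). Grhl1, a grainyhead-like factor known for its control of Dsg1, fell with a log2 fold change of −3.24 ± 0.89 (SE, edgeR adjusted p = 0.0493), and Klf4, a factor of barrier formation, fell with −1.32 ± 0.32 (SE, edgeR adjusted p = 0.0375), and neither passed without any 1 of the vehicle libraries (edgeR adjusted p = 0.0624 to 0.135). Without rebamipide 3 Grhl1 passed (edgeR adjusted p = 0.0451) and Klf4 did not (0.0873), and Klf4 was also lost without rebamipide 1 (0.0624). Zfp750, a terminal differentiation factor, had a log2 fold change of −3.12 (edgeR adjusted p = 0.207). Of 7 genes of desmosome processing edgeR called 0 lower (2 at an unadjusted p under 0.05, 1 without rebamipide 3), DESeq2 called 2 and limma-voom 0. The kallikrein proteases that cleave corneodesmosomes, Klk7 and Klk5, had log2 fold changes of −2.27 (edgeR adjusted p = 0.371) and −2.02 (edgeR adjusted p = 0.352). Atp2a2, the calcium pump whose loss causes Darier disease and which muscle also expresses, had 0.66 (edgeR adjusted p = 0.134).

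Keratins form the filaments that desmoplakin anchors. Of 6 epidermal keratins edgeR called 0 lower with all libraries (1 at an unadjusted p under 0.05) and 0 without rebamipide 3, DESeq2 called 1 and limma-voom 0. Krt5 had a log2 fold change of −2.56 ± 1.78 (SE, edgeR adjusted p = 0.316), Krt14 of −2.37 ± 1.97 (SE, edgeR adjusted p = 0.395) and Krt10 of −2.29 ± 1.61 (SE, edgeR adjusted p = 0.320). Without rebamipide 3 the edgeR adjusted p-values were 0.0543, 0.0879 and 0.236. Krt10 of the upper layers was at 301 CPM in vehicle 1, below rebamipide 1 and 2 at 566 and 354 CPM, while Dsg1a and Dsc1 of the same layers were at 432 and 312 CPM in vehicle 1, above every rebamipide library.

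The genes whose pattern over the 6 libraries was most like the mean log2 CPM of the restricted members, among 13270 genes outside the lists, were Bpifc (Pearson r = 0.99976), Wnt3 (0.99975), 2610528J11Rik (0.99963), Krt23 (0.99957) and Pnpla1 (0.99950). All 5, like the restricted members themselves, were at 0 counts in rebamipide 3, and the 6 points share their libraries' depth. Their log2 fold changes ranged from −3.26 for Krt23 to −2.36 for 2610528J11Rik, and none passed at an adjusted p under 0.05 in edgeR with all libraries (0.174 to 0.187). Without rebamipide 3, 4 of the 5 passed (0.0219 to 0.0281), against 2.49% of all genes, and 2610528J11Rik did not (0.0509). The 5 were picked for matching the restricted members over these same libraries. Their fold changes and calls therefore repeat those of the members and are no separate result.

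Markers of the other tissues in full-thickness skin also differed between the libraries. Brown adipocyte markers summed to 19.3 to 71.5 CPM in the vehicle libraries and 4426 to 12042 CPM in the rebamipide libraries, with 3 of 4 higher in edgeR. Adipocyte markers summed to 703 to 2745 against 3443 to 4710 CPM, with 2 of 4 higher in edgeR and 1 of 4 without rebamipide 3. Fibroblast markers summed to 11937 to 17585 against 15019, 3444 and 1803 CPM, and skeletal muscle markers to 3842 to 18943 against 24554, 5005 and 196 CPM, with 0 of 5 and 0 of 4 called in edgeR (2 and 0 at an unadjusted p under 0.05, 2 and 0 with DESeq2, 0 and 0 with limma-voom). Heart-type and slow muscle markers were included because heart muscle has desmosomes with Jup and Dsp, and they summed to 2.16 to 8.39 CPM against 167, 77.5 and 2.94 CPM. Of the 5 markers of that list 4 were tested, with 2 higher and 0 lower in edgeR, and limma-voom called 0 higher. Both that rose in edgeR, Myh7 and Myl2, are genes of slow muscle fibres as well, and Tnnt2, the heart troponin, was at 2.48 ± 1.11 against 0.409 ± 0.292 CPM (edgeR adjusted p = 0.0652, DESeq2 adjusted p = 0.00601). Sebaceous gland markers summed to 117 to 210 against 241 to 348 CPM, with 1 of 4 higher, 1 lower and a median log2 fold change of −1.78. The one that rose was Pparg, an adipocyte gene as well, from 41.3 ± 21.6 to 273 ± 92.6 CPM, and the one that fell was Mc5r, from 16.8 ± 6.60 to 2.29 ± 0.645 CPM. These 5 genes were named after their values were seen. Melanocyte markers summed to 23.1 to 701 against 0.687 to 88.6 CPM, and leukocyte markers to 441 to 1146 against 287 to 935 CPM. Their part in the desmosome gene levels was not tested.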

How the data were processed

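RNA-seq libraries of dorsal skin from 3 vehicle and 3 rebamipide mice were analysed. The deposited counts are whole reads per gene, not normalized. The FPKM, also computed by the authors, equal each count over the gene length in the table and over the library's summed counts. The submitters' processing notes list fastp 0.22.0, HISAT2 2.1.0, HTSeq 0.9.1 and GRCm39. The annotation release and the strand setting of the counting are not given in the sources used here. Names tied each of the 12 value columns to 1 sample.

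Counts were fitted over the whole table in R 4.3.3 with edgeR 4.0.16 (TMM, filterByExpr, quasi-likelihood test, Benjamini-Hochberg adjustment over 14875 genes). Standard errors are the log2 fold change divided by the root of the test statistic. Members were printed from that fit, and levels between genes were compared as FPKM. The annotation columns of the table (GO, KEGG and the like) were not used. Replicates of a group differed by far more than sampling noise (chi-square 71.0 to 655.7 times its degrees of freedom). The labels call them replicates, and the study's methods describe separate mice.

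The members and gene lists were chosen with earlier results of these data known. The rule for named genes took the 10 members, 9 other desmosome genes, the 3 genes of each other list with the highest mean FPKM, Cdh5, and the 5 genes outside the lists, with a mean of at least 50 counts, that correlated best with the restricted members. Of the genes this rule names, 1 is not reported here. Alternatives were DESeq2 1.42.0, limma-voom (limma 3.58.1), RLE, upper quartile and total-count scaling, no filter, at least 10 counts in every library, a replicate block, the study's thresholds, other reference genes, pseudocounts and classes, and each library left out in turn. On simulated counts with 200 genes changed 4-fold at a dispersion of 0.1, of 15039 in all, the share recovered was 93.5% for edgeR, 94.0% for DESeq2 and 90.5% for limma-voom. The false calls numbered 13, 33 and 8. The simulation used the same dispersion for all genes and held no deviating library. It checks that the tools run as intended, and it does not give their power for the members in these data.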

Additional observations from a re-analysis of the deposited data

How the results depend on the processing

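Of 191 alternative fold changes of the members, 0 reversed, 164 kept their side of the threshold, 19 came to pass it and 8 no longer passed it (4 each for Jup and Dsc2). The count of members lower, 2 with all libraries, was 5 with DESeq2 and 1 with at least 10 counts in every library, where Jup was the one member left to test. With single libraries left out it ranged from 0 to 10. In edgeR it was 0 without vehicle 1, vehicle 2 or rebamipide 2, 1 without vehicle 3, and 8 without rebamipide 3 (10 with DESeq2). Calls of genes outside the members fell in some of the same fits, and Cdh5 was lost without vehicle 2 or rebamipide 2. Of these left-out fits, the share of all genes called was computed only for those without rebamipide 3. The count of other listed genes lower, 6 of 54, was 26 with DESeq2, 12 when scaled by total counts and 21 with the study's thresholds in edgeR. With single libraries left out it ranged from 0 to 36 (edgeR 16 without rebamipide 3; DESeq2 11, 14 and 18 without vehicle 1, 2 and 3, and 28, 11 and 36 without rebamipide 1, 2 and 3), and the count higher, 0 with all libraries, ranged from 0 to 4. The cause of these shifts was not tested. Labels number the replicates 1 to 3 in both groups, but same-numbered libraries did not deviate together (correlations 0.01, −0.04 and 0.02), and not every library correlated best with its own number (0.39 for vehicle 2 with rebamipide 1). A replicate block left 2 members called and made 10 other genes lower. The median log2 ratio per keratin count ranged from −1.44 to −0.60 and the class difference from −1.14 to −0.49, so that each alternative moved the value by less than 1 SD of the replicates (0.73 and 0.56). limma-voom, which averages logs, gave a members' median of −6.21. Depth sets the limit of 3 counts, 0.114 CPM in rebamipide 3, where 7 members were at 0 counts although its total was the highest of its group.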
